A study of Mus musculus with 103 samples.

Results

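The mRNA response of mouse embryonic fibroblasts (MEFs) to deletion of Ctcf was set against the response of the same cell type to deletion of Smc3. The comparison used 12 of the 103 samples of the study: 2 untreated and 2 treated RNA-seq libraries of Ctcf cells, and 4 untreated and 4 treated libraries of Smc3 cells. For each gene, the change in log2(RPKM + 1) after Ctcf deletion was set against that after Smc3 deletion, where RPKM is a read count scaled to transcript length and library size. Genes that Adeno-Cre moved in wild-type cells were left aside. Of 23339 genes in the table, 12604 had at least 1 RPKM in at least 2 of the 27 libraries and were tested, and 10735 did not pass that filter. A change on this scale understates the fold change of genes with low values.

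All cells came from C57BL/6 embryos at E13.5 and were held resting for 10 d, so every group was quiescent. The Ctcf cells were Ctcf(fl/fl), clones 1 and 2, left untreated or exposed for 4 h to Adeno-Cre, an adenovirus that carries the Cre recombinase. The Smc3 cells carried Rosa26(CreER/+) and were Smc3(fl/fl) in clone 1 and Smc3(fl/-) in clones 2, 3 and 4, so untreated cells of the last clones already lacked a working allele. Their deletion was induced by 2 to 3 d of 4'hydroxytamoxifen (OHT), which moves the Cre-ER fusion protein into the nucleus. The controls were wild-type cells without and with Adeno-Cre (2 libraries each) and Cre-ER cells without and with OHT (2 libraries each). Cells that were Rosa26(CreER/+) Wapl(fl/-), without and with 2 to 3 d of OHT (2 libraries each), and cells that were Ctcf(fl/fl) Wapl(fl/fl), without and with 4 h of Adeno-Cre (2 untreated libraries and 1 treated library in the main table), were used to look up the genes found. Untreated Wapl cells thus had a floxed allele and no second working allele. The labels call the replicates clones, and nothing else says how separate the cultures were. The p-values of the main model rest on the spread of libraries within groups, pooled over all groups. They do not measure how far a deletion's effect varied between its own clones. The 2 deletions also differ in the way Cre was delivered and in the number of clones, and neither can be told apart from the gene deleted in a direct comparison.

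CTCF is a zinc finger protein that binds a long DNA motif and holds cohesin at its sites. Cohesin is a ring complex, with Smc3 as a core subunit, that folds chromosomes into loops by extruding DNA until it meets obstacles such as bound CTCF. In non-dividing cells the ring is not needed for chromosome segregation, so its part in gene expression can be followed after deletion. Loss of CTCF leaves cohesin on DNA without its usual barriers, whereas loss of Smc3 removes the ring itself.

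Reads in genes ranged from 8.5 M in untreated Smc3 clone 1 to 41.1 M in untreated Ctcf clone 1. Replicates within a group had correlations of 0.948 to 0.987 in log2(RPKM + 1). Summed levels of fibroblast markers lay between 7020 and 13765 RPKM in the 12 libraries. They fell in every Smc3 clone, from 12113, 13765, 8734 and 12256 RPKM to 9829, 9389, 7020 and 8133 RPKM after OHT. In Ctcf clones 1 and 2 they rose from 8653 and 7956 RPKM to 10231 and 8511 RPKM after Adeno-Cre. Macrophage markers summed to 1628 and 1526 RPKM in untreated Smc3 clones 1 and 3, and to 42.4 and 83 RPKM in clones 2 and 4. After OHT the sums were 190, 27.3, 289 and 26.9 RPKM in clones 1 to 4. In Ctcf cells they were 687 and 325 RPKM untreated and 436 and 285 RPKM after Adeno-Cre. None of the 16 macrophage markers tested passed the threshold after either deletion, with median log2 changes of -0.36 and -1.49. With the clone as a replicate block 10 of the 16 were called lower after Smc3 deletion and 0 after Ctcf deletion. Of all 12604 genes tested, that fit called 1591 and 1178 lower. With Smc3 clones 2 and 4 alone, which were chosen after the marker levels were seen, the Smc3 median was -0.45. In bulk RNA, fewer cells of a type and less RNA per cell cannot be told apart.

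Ctcf mRNA stood at 13.2 and 11.6 RPKM in untreated Ctcf clones 1 and 2 and at 4.23 and 4.04 RPKM after Adeno-Cre. The groups did not overlap, and the log2 change was -1.38 (SE 0.13; limma with Benjamini-Hochberg adjustment over all genes tested, adjusted p = 1.69e-06). In the Smc3 libraries Ctcf mRNA lay between 12.1 and 15.2 RPKM in every sample. Smc3 mRNA was 7.62, 9.9, 10.5 and 10.2 RPKM in untreated Smc3 clones 1 to 4 and 11.3, 11.1, 10.9 and 13.2 RPKM after OHT. It was thus higher, not lower, in each library labelled Smc3-deleted (log2 change 0.27, SE 0.11, adjusted p = 0.119). A whole-gene value need not show the loss of some exons, so the deletion rests on the labels, and every Smc3 direction given here depends on them.

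Ctcf deletion changed 966 of 12604 genes at an adjusted p below 0.05, which is 7.66% of those tested, with 635 higher (5.04%) and 331 lower (2.63%). The libraries labelled Smc3-deleted changed in 1887 genes (15.0%), with 1181 higher (9.37%) and 706 lower (5.60%). The change after Ctcf deletion differed from that after Smc3 deletion, by a contrast of the 2 changes in the same model, for 889 genes (7.05%). Adeno-Cre moved 408 genes (3.24%) in wild-type cells, 340 of them upward, but single libraries decided this count. It was 63 without untreated wild-type replicate 1, 65 without untreated replicate 2 and 45 without treated replicate 1. OHT in Cre-ER cells moved 0 genes in the limma test, and 41 had an unadjusted p below 0.05. That is fewer than chance gives at this threshold, so the 0 calls do not show that OHT had no effect. With the OHT change of Cre-ER cells subtracted, the Smc3 change passed for 155 genes. With the Adeno-Cre change of wild-type cells subtracted, the Ctcf change passed for 184. A contrast with a control also carries the spread of that control. With the clone as a replicate block the counts were larger, with 3155 genes for Ctcf, 4616 for Smc3, 3040 for their difference and 2899 for Adeno-Cre in wild-type cells. The Smc3 cells had 4 clones against 2, and any 2 of the 4 clones alone gave 404 to 1152 genes. Without untreated Ctcf clone 1 the Ctcf count was 380 and the count for the difference 410. Without treated Ctcf clone 1 they were 626 and 551, and without treated Ctcf clone 2 they were 498 and 534. The share of higher genes also moved with the scaling. With median-of-ratios rescaling 536 genes were higher and 415 lower after Ctcf deletion (56.4% higher, against 65.7%). For Smc3 the rescaled split was 881 higher and 801 lower (52.4% higher, against 62.6%).

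Changes after the 2 deletions overlapped in part. Of the 966 genes called for Ctcf, 226 were also called for Smc3, which is 23.4% against 15.0% of all genes and 12% of the Smc3 calls against 7.66% of all genes. Leaving aside the 408 genes that Adeno-Cre moved in wild-type cells left 12196 genes, with 818 called for Ctcf, 1821 for Smc3 and 197 for both. The 197 were 24.1% of the Ctcf calls, against 14.9% of these genes called for Smc3. They were 10.8% of the Smc3 calls, against 6.71% called for Ctcf. In 149 of the 197 (75.6%) the direction was the same, and in 48 it was opposite. Across all 12196 genes, called or not, 57.9% had the same sign, and the changes correlated at 0.28 (Pearson, across genes, which are not independent). Under the replicate block 673 genes moved the same way and 245 in opposite ways. Single Ctcf libraries weighed heavily on these counts. Without untreated Ctcf clone 1, 59 genes shared a direction and 21 were opposite. The counts were 87 and 24 without treated clone 1, 82 and 28 without treated clone 2, and without treated Smc3 clone 4 the opposite count was 27.

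**Figure D1:**
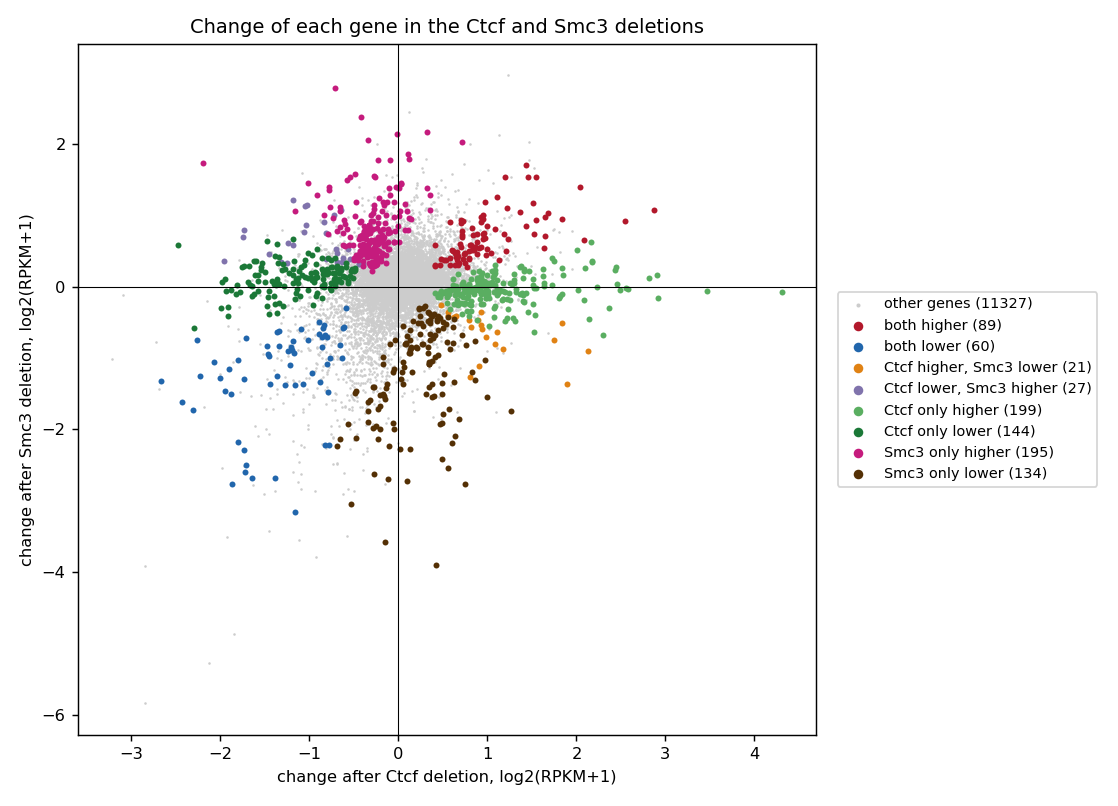
Each point is a gene, with its log2(RPKM + 1) change after Ctcf deletion on the x axis and after Smc3 deletion on the y axis; genes moved by Adeno-Cre in wild-type cells are left out and colours mark the classes. The 149 genes with a shared direction lie in the upper right and lower left, the 48 opposite genes in the other corners, and the genes called for a single deletion and for the difference lie nearer the axis of that deletion.

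Genes changed in both deletions and in the same direction comprised 89 higher and 60 lower genes, after 23 and 5 more had been left aside for Adeno-Cre. The median log2 change of the 89 was 0.86 after Ctcf deletion, 0.59 after Smc3 deletion and 0.15 after Adeno-Cre in wild-type cells. For the 60 lower genes the medians were -1.23, -1.04 and -0.41. Few of them differed between the deletions, with 7 of the 89 and 5 of the 60 called, although a difference that misses the threshold does not show that the changes were alike. The Ctcf change also differed from that of Adeno-Cre in wild-type cells, by a direct contrast, in 16 of the 89 and 7 of the 60, where 184 of all genes tested (1.46%) were called. Both sets were chosen on the same Ctcf and wild-type libraries, so a higher share is partly built in. With the change of each deletion's control subtracted, the difference between the deletions was called in 0 of the 89 and 2 of the 60. Of the 8 genes named for each of these classes by a fixed rule (the largest scores among those moving the same way in every clone), the higher set included Prcp, Tes, Svip and Rap1gap, and the lower set Hey2, Nrtn, Gfra2 and Cxcr7.

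Prcp, which encodes a lysosomal carboxypeptidase, rose in every clone of both genotypes. It was at 5.85 and 6.21 RPKM in untreated Ctcf clones 1 and 2 and at 17.9 and 18.0 RPKM after Adeno-Cre. In Smc3 clones 1 to 4 it was at 5.8, 8.2, 4.71 and 6.62 RPKM untreated and at 21.1, 25.4, 16.6 and 29 RPKM after OHT. Every treated library stood above every untreated library of either genotype, whereas wild-type cells held 7.3 to 7.6 RPKM without and 7.55 to 8.3 RPKM with Adeno-Cre. The log2 change was 1.43 (SE 0.23, adjusted p = 0.00045) after Ctcf deletion and 1.7 (SE 0.16, adjusted p = 1.92e-06) after Smc3 deletion. The 95% confidence interval of their difference ran from -0.86 to 0.31.

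Tes, which encodes a LIM-domain protein of focal adhesions, was at 17.9 and 39.7 RPKM in untreated Ctcf cells and at 90.5 and 142 RPKM after Adeno-Cre. In the Smc3 clones it went from 8.83, 6.7, 12.4 and 9.01 RPKM to 23.8, 21, 35.5 and 22.9 RPKM. Treated and untreated groups did not overlap in either genotype, but the level was lower throughout in Smc3 cells. The log2 changes were 2.04 (SE 0.34, adjusted p = 0.000817) and 1.39 (SE 0.24, adjusted p = 0.000808). Adeno-Cre in wild-type cells gave 1.18 (adjusted p = 0.0658), and the Ctcf change did not exceed it by the test of the difference (adjusted p = 0.688).

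Svip, which encodes an inhibitor of endoplasmic reticulum-associated degradation, rose in both but further after Ctcf deletion. It was at 0.972 and 2.95 RPKM in untreated Ctcf cells and at 18.2 and 20.5 RPKM after Adeno-Cre. Among Smc3 clones it was at 1.28, 1.32, 1.87 and 1.61 RPKM untreated and at 2.91, 3.63, 5.2 and 6.06 RPKM after OHT. No treated library fell into the untreated range, and the log2 changes were 2.87 (SE 0.27, adjusted p = 1.66e-06) and 1.08 (SE 0.19, adjusted p = 0.000873). The difference of 1.79 (95% confidence interval 1.09 to 2.48) had an adjusted p of 0.00276.

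Rap1gap, which encodes a GTPase-activating protein for Rap1, rose by 1.22 (SE 0.23, adjusted p = 0.00204) and 1.1 (SE 0.16, adjusted p = 0.000171) on the log2 scale. Stag1, which encodes a cohesin subunit that is an alternative to Stag2, was among the shared higher genes as a member of the list of cohesin and its regulators. It was at 4.06 and 4.22 RPKM in untreated Ctcf cells and 7.79 and 7.17 RPKM after Adeno-Cre. In the Smc3 clones it was at 6.34, 4.25, 5.31 and 4.27 RPKM untreated and 10.6, 9.04, 11.2 and 10.6 RPKM treated. All treated libraries stood above all untreated ones of their genotype. The log2 changes of Stag1 were 0.72 (SE 0.18, adjusted p = 0.0192) and 0.92 (SE 0.13, adjusted p = 0.00012), and the Ctcf call was lost without each of the 4 Ctcf libraries in turn, with adjusted p between 0.069 and 0.14. In the list of 13 cohesin genes tested, 2 rose after Ctcf deletion, and 2 rose and 1 fell after Smc3 deletion, with medians of 0.11 and 0.07 against 0.05 and 0.07 over all genes. The counts of this and the other lists stand beside 5.04% higher and 2.63% lower among all genes after Ctcf deletion and 9.37% higher and 5.60% lower after Smc3 deletion. Under the replicate block they stand beside 1977 higher and 1178 lower of all 12604 genes after Ctcf deletion. For Smc3 deletion the block gave 3025 higher and 1591 lower. Where a list is given with other pairs of Smc3 clones, that choice was made after seeing the data.

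Hey2, which encodes a transcriptional repressor downstream of Notch, was at 11.3 and 2.04 RPKM in untreated Ctcf clones 1 and 2 and at 1.11 and 0.328 RPKM after Adeno-Cre. Across Smc3 clones 1 to 4 it was at 13.2, 13.1, 7.6 and 11 RPKM untreated and at 2.05, 0.843, 0.353 and 0.294 RPKM after OHT. Each clone had less Hey2 after treatment and the groups did not overlap, but the untreated Ctcf clones lay far apart. The log2 changes were -1.87 (SE 0.53, adjusted p = 0.0363) and -2.76 (SE 0.37, adjusted p = 8.98e-05). The Ctcf call was lost without untreated clone 1 (-0.86, adjusted p = 0.53), treated clone 1 (adjusted p = 0.061) or treated clone 2 (adjusted p = 0.27).

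A ligand and a receptor of the GDNF family were lower in both deletions. Nrtn, which encodes neurturin, was at 14.8 and 28.1 RPKM in untreated Ctcf cells and at 2.65 and 9.43 RPKM after Adeno-Cre. It was at 19.3, 25.1, 15.6 and 20.5 RPKM in untreated Smc3 cells and at 1.67, 3.78, 4.46 and 5.41 RPKM after OHT. Gfra2, which encodes the co-receptor that binds neurturin, was at 7.81 and 7.51 RPKM untreated and 1.39 and 1.9 RPKM treated in the Ctcf cells. In the Smc3 clones it went from 10.3, 12.4, 5.32 and 11.1 RPKM to 2.09, 0.867, 0.235 and 0.215 RPKM. Neither gene had a treated library within the untreated range. The log2 change of Nrtn was -1.8 (SE 0.51, adjusted p = 0.0387) after Ctcf deletion and -2.18 (SE 0.36, adjusted p = 0.000544) after Smc3 deletion. That of Gfra2 was -1.72 (SE 0.42, adjusted p = 0.0157) and -2.6 (SE 0.3, adjusted p = 1.79e-05). Both Ctcf calls depended on single libraries. The Nrtn call was lost without treated clone 1 (adjusted p = 0.34), untreated clone 1 (0.065) or untreated clone 2 (0.24), and the Gfra2 call without any of the 4 Ctcf libraries (0.061 to 0.11).

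The neighbouring complement genes C1ra and C1s, whose proteins are the proteases that start the classical pathway, were lower in both deletions. C1ra was at 30.7 and 16.9 RPKM in untreated Ctcf cells and at 3.93 and 4.01 RPKM after Adeno-Cre, against 18.3, 11.1, 15.7 and 10.5 RPKM before and 8, 6.29, 9.41 and 7.28 RPKM after OHT in Smc3 cells. C1s was at 21.3 and 14.7 RPKM untreated and 4.06 and 5.45 RPKM treated in Ctcf cells, and at 12.1, 3.72, 10.4 and 3.6 RPKM untreated and 0.599, 0.0895, 0.532 and 0.172 RPKM treated in Smc3 cells. The larger fall followed Ctcf deletion for C1ra and Smc3 deletion for C1s. C1ra fell by 2.26 (SE 0.27, adjusted p = 2.23e-05) after Ctcf deletion and by 0.75 (SE 0.19, adjusted p = 0.0117) after Smc3 deletion, a difference of -1.51 with an adjusted p of 0.00817. C1s fell by 1.71 (SE 0.42, adjusted p = 0.0153) and by 2.5 (SE 0.3, adjusted p = 2.52e-05), and its difference of 0.79 (95% confidence interval -0.28 to 1.87) did not pass. The C1s call for Ctcf was lost without untreated clone 1 (adjusted p = 0.17), treated clone 1 (0.11) or treated clone 2 (0.053). Both genes have near-identical copies in the mouse genome, so reads may have been split between copies. Macrophages also make complement proteins, and the macrophage markers stood at the levels given above; their part in these values was not tested.

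Cxcr7, which encodes an atypical receptor that binds the chemokine Cxcl12, was at 21.8 and 10.3 RPKM in untreated Ctcf cells and at 1.75 and 2.22 RPKM after Adeno-Cre. In Smc3 clones 1 to 4 it was at 29.6, 30.2, 46.4 and 30.8 RPKM untreated and 22.1, 13.1, 6.33 and 5.99 RPKM treated. The fall was small in Smc3 clone 1 and large in clones 3 and 4, without overlap of the groups. The log2 changes were -2.43 (SE 0.47, adjusted p = 0.00291, and 0.079 without untreated Ctcf clone 1) and -1.61 (SE 0.33, adjusted p = 0.00316). Cntnap3, a gene of the contactin-associated protein family, fell by 1.64 (SE 0.33, adjusted p = 0.00364) and by 2.68 (SE 0.23, adjusted p = 7.93e-07).

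**Figure D2:**
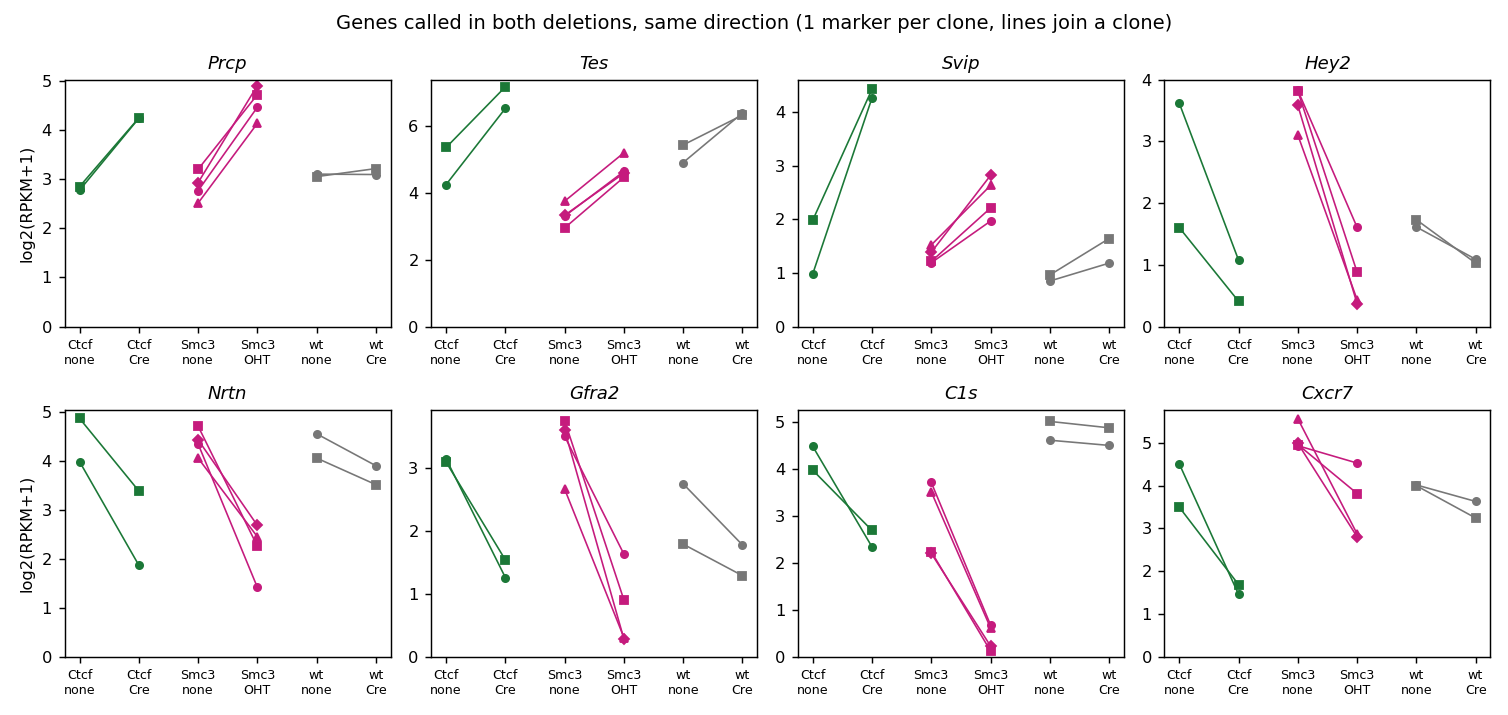
Values per library, as log2(RPKM + 1) on the y axis, of 8 genes that changed in the same direction in both deletions, by group on the x axis (Ctcf without and with Adeno-Cre, Smc3 without and with OHT, wild-type without and with Adeno-Cre); a line joins the libraries of a clone. Prcp rose in every Ctcf and Smc3 clone, while Hey2 started at 11.3 RPKM in untreated Ctcf clone 1 and 2.04 RPKM in clone 2.

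Among genes with opposite changes, 21 were higher after Ctcf deletion and lower after Smc3 deletion, with median log2 changes of 0.93 and -0.57, and 27 were lower after Ctcf deletion and higher after Smc3 deletion, with medians of -0.83 and 0.53. After Adeno-Cre in wild-type cells the medians were 0.15 and -0.23. The difference between the deletions was called in all 48. These genes were chosen for opposite calls in the same libraries, so this result is largely built in and is not a separate test. Of the 16 calls of the 8 named genes of each class, 9 and 10 held with each single library left out in turn. With the change of each control subtracted (Adeno-Cre in wild-type cells, OHT in Cre-ER cells), the difference was called in 5 of the 21 and 11 of the 27, where 91 of all genes tested (0.722%) were called. That contrast reuses the libraries that chose the classes, so a higher share is partly built in.

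Kcnmb4, which encodes an accessory subunit of the large-conductance calcium-activated potassium channel, was at 1.41 and 3.03 RPKM in untreated Ctcf cells and at 10.3 and 10.8 RPKM after Adeno-Cre. For Smc3 clones it went from 2.48, 0.84, 5.33 and 1.91 RPKM to 0.491, 0.199, 0.405 and 0.0463 RPKM. All treated Ctcf libraries were above, and all treated Smc3 libraries below, every untreated library. The log2 changes were 1.89 (SE 0.43, adjusted p = 0.00948) and -1.37 (SE 0.3, adjusted p = 0.0047), with a difference of 3.26 (95% confidence interval 2.15 to 4.37, adjusted p = 0.000844). The Ctcf call was lost without untreated clone 1 (adjusted p = 0.15) or treated clone 2 (0.069).

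Dgat2, which encodes an enzyme of the last step of triglyceride synthesis, was at 1.77 and 1.66 RPKM in untreated Ctcf cells and 13.3 and 8.82 RPKM after Adeno-Cre. In the Smc3 clones it was at 2.63, 5.6, 1.87 and 5.47 RPKM untreated and 1.72, 1.57, 1.3 and 1.3 RPKM treated. The treated Ctcf libraries held the highest values, and the treated Smc3 libraries lay just under the lowest untreated Smc3 library. On the log2 scale the change was 2.13 (SE 0.33, adjusted p = 0.000335) after Ctcf deletion. It was -0.9 (SE 0.23, adjusted p = 0.0126) after Smc3 deletion, and that call was lost without untreated Smc3 clone 2 (adjusted p = 0.053).

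Plxna4, a semaphorin receptor gene, had a small spread. It was at 1.9 and 1.83 RPKM in untreated Ctcf cells and 10.4 and 7.14 RPKM after Adeno-Cre, against 1.11, 1.42, 1.34 and 1.8 RPKM before and 0.513, 0.424, 0.381 and 0.395 RPKM after OHT in the Smc3 clones. No treated value fell within an untreated range, and the log2 changes were 1.75 (SE 0.18, adjusted p = 5.97e-06) and -0.75 (SE 0.13, adjusted p = 0.000644). With the controls subtracted the difference was 2.8 (adjusted p = 0.000274). Chsy3, which encodes an enzyme that extends chondroitin sulfate chains, rose by 1.17 (SE 0.2, adjusted p = 0.000939) and fell by 0.88 (SE 0.14, adjusted p = 0.00036). Its net difference was 1.63 (adjusted p = 0.0495).

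In the other direction, Man2b2, which encodes a lysosomal mannosidase, was at 105 and 80.1 RPKM in untreated Ctcf cells and 31.2 and 23.3 RPKM after Adeno-Cre. Over the 4 Smc3 clones it went from 148, 143, 130 and 140 RPKM to 218, 240, 257 and 258 RPKM. The groups were far apart in each genotype, and wild-type cells with Adeno-Cre, at 94.6 and 78.3 RPKM, were near those without, at 106 and 83.7 RPKM. The log2 changes were -1.73 (SE 0.16, adjusted p = 1.66e-06) and 0.79 (SE 0.12, adjusted p = 0.000162). Their difference of -2.52 (95% confidence interval -2.94 to -2.1) had an adjusted p of 3.03e-07.

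Bdh2, which encodes a short-chain dehydrogenase, was at 8.98 and 11.5 RPKM in untreated Ctcf cells and 3.18 and 4.75 RPKM after Adeno-Cre, and in the Smc3 clones at 11.3, 12.3, 11.9 and 13 RPKM before and 20.2, 29.8, 35.5 and 34.1 RPKM after OHT. Treated values lay outside the untreated range in both, with log2 changes of -1.18 (SE 0.33, adjusted p = 0.0331) and 1.21 (SE 0.23, adjusted p = 0.00171). The Ctcf call of Bdh2 was lost without any of the 4 Ctcf libraries (adjusted p 0.061 to 0.21). Myl6b, a myosin light chain gene, fell by 1.04 (SE 0.22, adjusted p = 0.00505) and rose by 0.87 (SE 0.15, adjusted p = 0.000871). The calls held with any single library left out.

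Zfp423, which encodes a zinc finger transcription factor of preadipocytes, was at 2.61 and 1.92 RPKM in untreated Ctcf cells and 0.881 and 0.77 RPKM after Adeno-Cre, against 9.74, 9.46, 9.54 and 8.11 RPKM before and 14.3, 17.9, 21.5 and 19.3 RPKM after OHT in the Smc3 clones. Untreated Smc3 cells thus held more Zfp423 than any Ctcf library. The log2 changes of -0.83 (SE 0.21, adjusted p = 0.0174) and 0.9 (SE 0.15, adjusted p = 0.000409) stood beside -0.66 (adjusted p = 0.0906) for Adeno-Cre in wild-type cells, and no difference from that was called for the Ctcf change (-0.17, adjusted p = 1). The Ctcf call was lost without treated clone 1 (0.062), treated clone 2 (0.12) or untreated clone 1 (0.2).

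**Figure D3:**
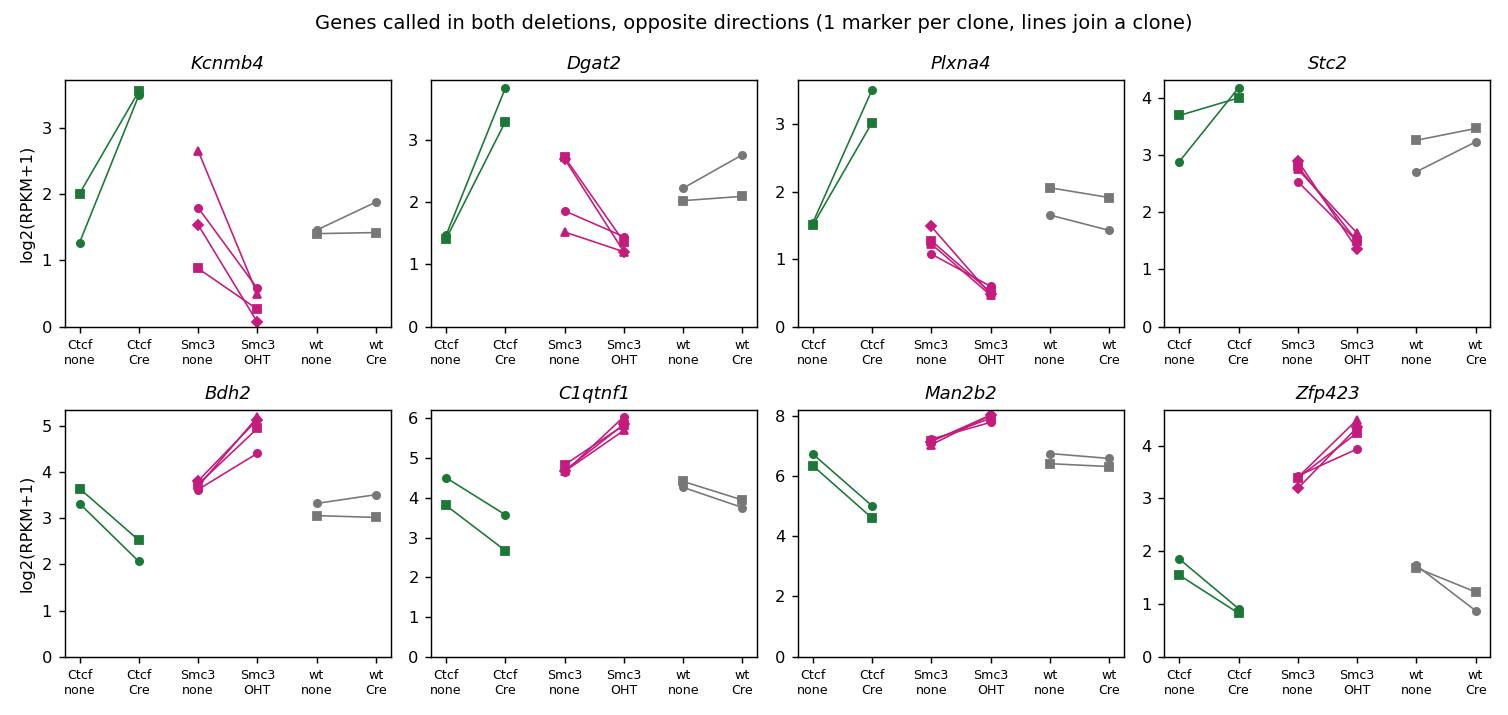
Values per library, as log2(RPKM + 1) on the y axis, of 8 genes that changed in opposite directions, with the groups on the x axis ordered as Ctcf, Smc3 and wild-type and a line joining the libraries of a clone. Kcnmb4, Dgat2, Plxna4 and Stc2 rose after Ctcf deletion and fell after Smc3 deletion, and Bdh2, C1qtnf1, Man2b2 and Zfp423 did the reverse. The Ctcf change of Stc2 did not pass with median-of-ratios rescaling (adjusted p = 0.072), length trends removed (0.093) or a pseudocount of 0.1 (0.052). Its call was also lost without untreated clone 1 (log2 change 0.4), treated clone 1 (0.72) or treated clone 2 (0.89). The Ctcf call of C1qtnf1 was lost without treated clone 2 (-0.58) or untreated clone 1 (-0.68).

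Genes were counted as changed in a single deletion when they passed for that deletion, did not pass for the other and passed for the difference. By this rule 199 genes were higher and 144 lower after Ctcf deletion alone, and 195 were higher and 134 lower after Smc3 deletion alone. The median log2 changes of the Ctcf genes were 0.99 and -1.05 after Ctcf deletion and -0.05 and 0.13 after Smc3 deletion. The medians of the Smc3 genes were 0.70 and -1.08 after Smc3 deletion and -0.29 and 0.26 after Ctcf deletion. The Ctcf change differed from that of Adeno-Cre in wild-type cells in 61 of the 199 and 54 of the 144, against 1.46% of all genes tested. The classes were chosen on the same Ctcf and wild-type libraries, so a higher share is partly built in. With each control's change subtracted, the difference between the deletions was called in 24 of the 199 and 24 of the 144. It was called in 4 of the 195 and 9 of the 134, against 0.722% of all genes tested. That contrast also reuses the libraries that chose the classes. A further 278 genes passed for Ctcf and 1295 for Smc3 without passing for the difference, and are in neither class. Under the replicate block the classes held 627 genes for Ctcf and 945 for Smc3. Without untreated Ctcf clone 1 they held 158 and 164 genes, without treated Ctcf clone 1 227 and 183, and without treated Ctcf clone 2 216 and 202. The Smc3 class held 211 genes without untreated Ctcf clone 2 and 517 without treated Smc3 clone 1.

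Cldn3, which encodes a tight junction protein of epithelia, was among the genes higher after Ctcf deletion alone. It was at 0.212 and 0.359 RPKM in untreated Ctcf cells and at 22 and 27.1 RPKM after Adeno-Cre. In the Smc3 clones it was listed at 0, 0.0513, 0 and 0.869 RPKM untreated and at 0.06, 0, 0.322 and 0.147 RPKM after OHT, and in wild-type cells at 0.139 and 0.202 RPKM without and 0.929 and 1.04 RPKM with Adeno-Cre. The treated Ctcf libraries thus stood above all others of these groups. The log2 change was 4.31 (SE 0.22, adjusted p = 8.26e-10) after Ctcf deletion and -0.07 (SE 0.16, adjusted p = 0.821) after Smc3 deletion, and the Ctcf change exceeded that in wild-type cells by 3.55 (adjusted p = 4.36e-06). Among 22 epithelial junction and keratin genes tested, 4 rose after Ctcf deletion, and 4 rose and 2 fell after Smc3 deletion, with medians of 0.16 and 0.11.

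Ada, which encodes adenosine deaminase, was at 7.5 and 6.68 RPKM in untreated Ctcf cells and 87.8 and 89.4 RPKM after Adeno-Cre. Among Smc3 clones it was at 4.17, 12.5, 5.41 and 19.9 RPKM untreated and 7.56, 9.32, 8.7 and 8.3 RPKM treated, so those groups overlapped. It changed by 3.47 (SE 0.42, adjusted p = 2.55e-05) after Ctcf deletion, and it differed from the Smc3 change by 3.53 (95% confidence interval 2.46 to 4.6, adjusted p = 0.000317). In the combined deletion of Ctcf and Wapl the change of Ada was 0.53 (adjusted p = 0.538). Gldc, which encodes the decarboxylase of the glycine cleavage system, was at 0.15 and 0.206 RPKM untreated and 6.27 and 5.79 RPKM after Adeno-Cre (log2 change 2.58, SE 0.13, adjusted p = 8.26e-10). Slc14a1, a urea transporter gene, was at 0.367 and 0.364 RPKM untreated and 7.92 and 6.27 RPKM after Adeno-Cre (log2 change 2.56, SE 0.15, adjusted p = 3.57e-09). Neither gene changed detectably after Smc3 deletion, with log2 changes of -0.03 and -0.02. Agt, which encodes angiotensinogen, rose by 2.92 (SE 0.52, adjusted p = 0.0014), from 0.863 and 2 RPKM to 5.81 and 46.1 RPKM, values that lie far apart between the clones.

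Of the genes lower after Ctcf deletion alone, Prelp and Gaa had high levels. Prelp, which encodes a leucine-rich proteoglycan of the matrix, was at 554 and 517 RPKM in untreated Ctcf cells and 81 and 112 RPKM after Adeno-Cre. In the Smc3 clones it was at 294, 226, 486 and 281 RPKM untreated and 458, 382, 432 and 612 RPKM treated. The Ctcf groups were apart and the Smc3 groups overlapped. The log2 change was -2.48 (SE 0.47, adjusted p = 0.00222) against 0.59 (SE 0.33, adjusted p = 0.267). Wild-type cells held 389 and 300 RPKM without and 231 and 153 RPKM with Adeno-Cre, and the Ctcf change did not pass against theirs (-1.62, adjusted p = 0.415).

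Gaa, which encodes the lysosomal acid alpha-glucosidase, was at 310 and 254 RPKM in untreated Ctcf cells and 69.5 and 71.6 RPKM after Adeno-Cre. It was at 410, 379, 338 and 354 RPKM in untreated Smc3 cells and 358, 435, 359 and 398 RPKM after OHT. Both treated Ctcf libraries stood below all others, and the Smc3 groups overlapped. On the log2 scale the change was -1.98 (SE 0.17, adjusted p = 6.77e-07) after Ctcf deletion and 0.07 (SE 0.12, adjusted p = 0.784) after Smc3 deletion. The Ctcf change differed from that in wild-type cells by -1.83 (adjusted p = 0.000273). Ndufaf3, which encodes an assembly factor of respiratory complex I, fell by 1.76 (SE 0.2, adjusted p = 1.55e-05), from 19.2 and 19.6 RPKM to 4.49 and 5.63 RPKM. Dhrs4, a short-chain dehydrogenase gene, fell by 1.94 (SE 0.22, adjusted p = 1.37e-05), and Sgce, an imprinted gene that encodes epsilon-sarcoglycan, by 1.53 (SE 0.21, adjusted p = 9.45e-05).

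The clustered protocadherins, cell surface proteins chosen promoter by promoter in neurons through CTCF and cohesin, were mostly lower after Ctcf deletion. Of 58 listed genes, 33 were tested, and 26 fell and 0 rose after Ctcf deletion, with a median log2 change of -0.88 against 0.05 over all genes. After Smc3 deletion 2 rose and 2 fell, with a median of -0.09. The difference was called in 14, all with the lower value after Ctcf deletion. Pcdhb17 was at 6.21 and 8.76 RPKM in untreated Ctcf cells and 1.26 and 2.01 RPKM after Adeno-Cre, against 3.83, 6.18, 5.76 and 7.66 RPKM before and 6.79, 9.63, 5.43 and 7.5 RPKM after OHT in the Smc3 clones. The Ctcf groups did not overlap and the Smc3 groups did. Its log2 change was -1.68 (SE 0.26, adjusted p = 0.000301) after Ctcf deletion and 0.29 (adjusted p = 0.327) after Smc3 deletion, with a difference of -1.97 (adjusted p = 0.000739). Pcdhb16 and Pcdhb18, at -0.63 and -0.7 after Ctcf deletion and 0.4 and 0.52 after Smc3 deletion, had opposite calls. Both Ctcf calls were lost without any of the 4 Ctcf libraries. The Smc3 call of Pcdhb16 was lost with length trends removed (adjusted p = 0.069), median-of-ratios rescaling (0.066) or a pseudocount of 0.1 (0.07). It was also lost without untreated Smc3 clone 1 (0.12) or 2 (0.078), or treated clone 1 (0.056), 2 (0.11) or 3 (0.054). Pcdhga12 and Pcdhgb7 were lower in both, and their Ctcf calls were lost without untreated clone 1 (adjusted p = 0.17 and 0.16). The genes of the gamma cluster share their last exons, so their values are not independent of each other. With the replicate block 27 fell after Ctcf deletion, and 5 rose and 8 fell after Smc3 deletion. In that fit 1178 of all 12604 genes fell after Ctcf deletion, and 3025 rose and 1591 fell after Smc3 deletion. The Smc3 values depended on the clones used. With clones 3 and 4 alone 0 rose and 13 fell, with a median of -0.37, and the difference was called in 7. With clones 1 and 2 alone 2 rose and 0 fell, with a median of 0.12.

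Some genes that handle retinoids were among those changed after Smc3 deletion alone, in both directions. Crabp1, which encodes a cellular retinoic acid-binding protein, went from 134, 109, 66.2 and 106 RPKM to 10.9, 9.39, 4.13 and 2.33 RPKM in the Smc3 clones, and was at 27 and 30.1 RPKM untreated and 51.1 and 28.8 RPKM treated in Ctcf cells. It fell in every Smc3 clone, by 3.9 in the mean (SE 0.37, adjusted p = 3.49e-06), with a log2 change of 0.42 (adjusted p = 0.769) after Ctcf deletion and 1.94 (adjusted p = 0.0531) after Adeno-Cre in wild-type cells. Aldh1a1, an enzyme gene of retinoic acid synthesis, rose by 1.29 (SE 0.27, adjusted p = 0.00276). Aldh1a3, of the same enzyme family, fell by 1.11 (SE 0.19, adjusted p = 0.000652) after Smc3 deletion and rose by 0.9 (SE 0.27, adjusted p = 0.0475) after Ctcf deletion. The Ctcf call was lost without treated clone 1 (0.3), untreated clone 2 (0.35), any of 5 single Smc3 libraries (0.051 to 0.057) or any single wild-type library (0.056 or 0.057). It was also lost with a pseudocount of 0.1 (0.16), median-of-ratios rescaling (0.078), length trends removed (0.074) or no filter on low values (0.067). Of 13 retinoid genes tested, 1 rose after Ctcf deletion, and 3 rose and 3 fell after Smc3 deletion, with medians of -0.27 and -0.19.

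Several genes of the Wnt pathway fell after Smc3 deletion. Of 22 antagonists and modulators tested, 10 fell and 3 rose after Smc3 deletion (median log2 change -0.54), and 1 fell and 1 rose after Ctcf deletion (median -0.32). The difference was called in 3 of them. Wnt11, a ligand of the non-canonical branch that the rule named among the genes lower after Smc3 deletion alone, went from 8.23, 13.2, 6.39 and 11.3 RPKM to 0.953, 1, 0.919 and 0.383 RPKM in the Smc3 clones. It was at 4.62 and 3.78 RPKM in untreated Ctcf cells and 6.01 and 7.24 RPKM after Adeno-Cre. It changed by -2.54 (SE 0.2, adjusted p = 2.01e-07) after Smc3 deletion and 0.55 (adjusted p = 0.289) after Ctcf deletion. Nkd1, which encodes an inhibitor of Dishevelled, went from 17.6, 20.1, 21.7 and 20.7 RPKM to 5, 3.55, 3.29 and 3.34 RPKM, while Ctcf cells held 14.6 and 13 RPKM untreated and 12.4 and 10.9 RPKM treated. It fell by 2.14 (SE 0.15, adjusted p = 7.64e-08), and the Ctcf change was -0.23 (adjusted p = 0.624). Dkk2, a secreted Wnt modulator gene, fell by 3.04 (SE 0.42, adjusted p = 0.00013). Apcdd1, which encodes a membrane-bound Wnt inhibitor, moved the other way, from 8.41, 14.2, 13.6 and 15.9 RPKM to 32.1, 41.3, 94.8 and 77.9 RPKM (log2 change 2.06, SE 0.32, adjusted p = 0.000276). Dkk3 was the only member called in both deletions in the model without the block, and it rose in both (0.8 and 0.58). Its Ctcf call was lost without treated clone 2 (adjusted p = 0.097) or untreated clone 1 (0.1).

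Other genes lower after Smc3 deletion alone included Atp1b1, which encodes a subunit of the sodium-potassium pump. It went from 13.3, 23.5, 18.4 and 34.7 RPKM to 2.26, 2.7, 3.17 and 1.5 RPKM (log2 change -2.73, SE 0.26, adjusted p = 2.76e-06) and changed by 0.1 (adjusted p = 0.937) after Ctcf deletion. Fxyd5, a regulator of the same pump, went from 35.1, 21, 41.1 and 30.3 RPKM to 6.64, 2.53, 4.89 and 2.1 RPKM (log2 change -2.76, adjusted p = 0.000193). Both genes were lower in every treated Smc3 library than in any untreated one. Flt1, a receptor for vascular endothelial growth factor, went from 7.46, 7.82, 15.7 and 14.1 RPKM to 4.27, 0.862, 0.604 and 0.475 RPKM (log2 change -2.42, SE 0.34, adjusted p = 0.000135), and was at 27.5 and 33.9 RPKM untreated and 39.8 and 46.7 RPKM treated in Ctcf cells. Endothelial markers, a list of 8 genes that includes Flt1 itself, summed to 12.3 to 22 RPKM in untreated and 1.48 to 11 RPKM in treated Smc3 cells. In Ctcf cells, where Tie1 was listed at 0, they summed to 31.1 to 37.9 and 44.7 to 51.8 RPKM. Flt1 made up most of the Ctcf sums, so they are not a separate measure of endothelial cells. The part of such cells in the Flt1 values was not tested.

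Of 16 striated muscle genes tested, 7 rose and 0 fell after Smc3 deletion, where 9.37% of all genes rose, and the other 9 did not pass (median of the list 0.56). After Ctcf deletion 1 rose (median -0.05). With pairs of Smc3 clones alone, 4 to 7 rose after Smc3 deletion. Skeletal muscle markers, which include sarcomere genes such as Myh8, summed to 10.7 to 13.9 RPKM in untreated Smc3 cells and to 35.5, 13.4, 25.2 and 14.4 RPKM after OHT in clones 1 to 4. In Ctcf cells they summed to 12.7 and 17.8 RPKM untreated and 51 and 49 RPKM after Adeno-Cre. Their part in the muscle gene values was not tested. Tnnt2, which encodes cardiac troponin T, went from 1.53, 2.36, 3.63 and 2.66 RPKM to 14.3, 19.5, 14 and 67 RPKM in the Smc3 clones, with clone 4 far above the others. The groups did not overlap, and the log2 change was 2.78 (SE 0.5, adjusted p = 0.00104), against -0.71 (adjusted p = 0.67) after Ctcf deletion. The neighbouring myosin heavy chain genes Myh2, Myh1 and Myh8 rose by 1.44, 1.01 and 0.76 on the log2 scale after Smc3 deletion. They are near-identical in sequence, so reads may have been split between them.

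**Figure D4:**
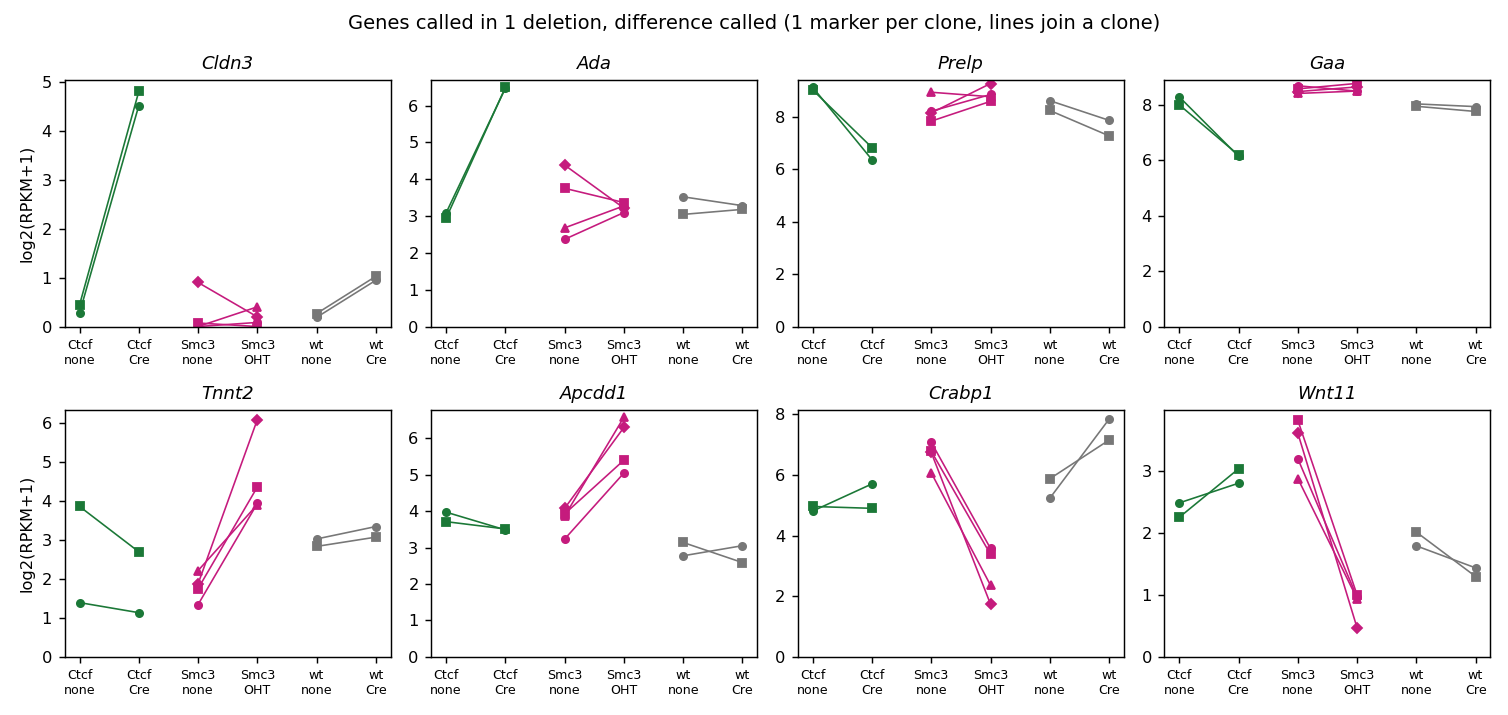
Values per library, as log2(RPKM + 1) on the y axis, of 8 genes that changed after a single deletion, with the groups on the x axis ordered as Ctcf, Smc3 and wild-type and a line joining the libraries of a clone. Cldn3 and Ada were highest and Prelp and Gaa lowest in treated Ctcf cells among these groups, and Tnnt2 and Apcdd1 rose and Crabp1 and Wnt11 fell in the treated Smc3 clones.

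Of 32 TGF-beta and BMP ligands and modulators tested, 1 rose and 2 fell after Ctcf deletion, and 3 rose and 10 fell after Smc3 deletion. The medians were -0.47 and -0.69 against 0.05 and 0.07 over all genes, and the difference was called in 0 of the 32. The members called in both were Nog, which encodes the BMP antagonist noggin, at -1.22 and -1.1, Nbl1, another BMP antagonist gene, at -0.98 and -1.21, and Fstl3, a follistatin-like activin antagonist gene, at 0.98 and 1.19. Their Ctcf calls were lost without untreated Ctcf clone 1, with adjusted p of 0.28, 0.22 and 0.2. They were lost without treated clone 1 as well (0.13, 0.057 and 0.13), and those of Nbl1 and Fstl3 also without treated clone 2 (0.2 and 0.11) or untreated clone 2 (0.051 and 0.076). Under the replicate block 10 of the list fell after Ctcf deletion and 21 after Smc3 deletion. Of 16 matrix metalloproteinases and their inhibitors, 5 fell after Ctcf deletion (median -0.59), and 2 rose and 4 fell after Smc3 deletion (median -0.13). Of 34 collagens, 4 fell after Ctcf deletion, and 4 rose and 10 fell after Smc3 deletion, with medians of -0.2 and -0.19. Among 13 small leucine-rich proteoglycans 2 fell after Ctcf deletion (median -0.49), and 1 rose and 3 fell after Smc3 deletion (median 0.17). Of 21 elastic fibre genes, 2 rose after Ctcf deletion (median -0.2), and 4 rose and 4 fell after Smc3 deletion (median 0.05).

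Lipid and biosynthesis lists differed in their counts between the deletions. Of 24 genes of cholesterol synthesis, 6 rose and 0 fell after Smc3 deletion (median 0.63), and none passed after Ctcf deletion (median -0.06), but the difference was called in 0 of them. The Smc3 count depended on the clones used. With pairs of clones alone 7 rose (clones 1 and 2), 9 (1 and 4), 1 (2 and 4) and 0 (1 and 3, 2 and 3, and 3 and 4), and with the replicate block 15 rose. Tm7sf2, a sterol reductase gene, rose by 1.17 (adjusted p = 0.00745). Of 18 adipogenic genes, 5 fell and 0 rose after Smc3 deletion (median -0.67), where 5.60% of all genes fell. With clones 1 and 2 alone 2 rose and 0 fell, and with clones 1 and 4 alone 1 rose and 0 fell. Among the 5 were Pparg, the master regulator of adipocyte differentiation, at -1.52 (adjusted p = 0.00133), and Fabp4, a fatty acid-binding protein gene, at -2.48 (adjusted p = 0.00175). After Ctcf deletion the same list had 1 call, the rise of Dgat2 (median -0.15). Adipocyte markers, which include Pparg and Fabp4 themselves, summed to 28.6 to 46.2 RPKM in untreated and 6.65 to 15.6 RPKM in treated Smc3 cells. In Ctcf cells they summed to 36.8 to 47.4 and 20.5 to 24.9 RPKM. The sums are thus not a separate measure of adipocytes, whose part in these values was not tested. Of 80 cytoplasmic ribosomal protein genes, 8 fell and 0 rose after Smc3 deletion (median -0.21), and 1 rose after Ctcf deletion (median 0.22, and 0.0 after each library's length trend was removed). With Smc3 clones 2 and 4 alone 2 fell, and under the replicate block 28 fell.

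Histone and interferon genes were among those left aside for Adeno-Cre. Of 43 histone genes tested, 18 rose after Ctcf deletion and 12 after Smc3 deletion, but 24 rose after Adeno-Cre in wild-type cells. Many histone genes are near-identical copies, so their values are uncertain. Of 43 interferon-stimulated genes, 21 rose after Adeno-Cre in wild-type cells, against 1 after Ctcf deletion and 1 after Smc3 deletion. Their medians were 1.62, -0.07 and 0.22, and 1.3 in the combined deletion of Ctcf and Wapl, which also used Adeno-Cre. Wild-type and Ctcf cells given Adeno-Cre thus differed in these genes. The genes left aside therefore need not be those that Adeno-Cre moved in Ctcf cells. Hist1h4h, at 2.21 after Ctcf deletion, 1.95 after Smc3 deletion and 3.1 after Adeno-Cre in wild-type cells, was among the genes set aside. So were Fmod, which encodes the matrix proteoglycan fibromodulin, at -3.2, -2.22 and -1.82, and Tubb3, a tubulin gene of neurons, at 2.94, 1.2 and 1.62.

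The classes were then looked up in the combined deletion of Ctcf and Wapl, in clones other than those that chose them. This deletion has 1 treated library, from clone 4, and its test assumes that the lone library varies like those of the other groups. In it 1997 genes (15.8%) were called, 1324 higher (10.5%) and 673 lower (5.34%). Of the 199 genes higher after Ctcf deletion alone, 99 (49.7%) were higher there and 0 lower. Of the 144 lower genes, 107 (74.3%) were lower and 0 higher. Of the genes shared with Smc3, 47 of the 89 higher genes (52.8%) and 51 of the 60 lower genes (85.0%) were called in the same direction, and 1 and 0 in the other. Of the 27 genes lower after Ctcf and higher after Smc3 deletion, 16 (59.3%) were lower in the combined deletion and 1 higher. Of the 21 in the reverse class, 5 (23.8%) were higher and 3 (14.3%) lower. Man2b2 fell by 2.01, Gaa by 2.91 and Stag1 rose by 1.62 on the log2 scale in the combined deletion, while Kcnmb4 changed by 0.42 (adjusted p = 0.659) and Plxna4 by -0.46 (adjusted p = 0.183). Of the 195 genes higher after Smc3 deletion alone, 12 (6.15%) were higher and 23 (11.8%) lower in the combined deletion. Of the 134 lower genes, 33 (24.6%) were lower and 12 (8.96%) higher. The combined deletion used Adeno-Cre as the Ctcf deletion did.

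The Wapl cells shared Cre-ER and OHT with the Smc3 cells. With Wapl deleted, 306 genes (2.43%) were called, 189 higher (1.50%) and 117 lower (0.928%). Of the 89 genes higher in both deletions 13 (14.6%) were higher after Wapl deletion and 2 lower. Of the 60 lower genes 8 (13.3%) were lower and 0 higher. Of the genes changed after Smc3 deletion alone, 22 of 195 (11.3%) were higher and 12 of 134 (8.96%) lower, against 10 of 199 (5.03%) and 7 of 144 (4.86%) for Ctcf deletion alone. In the same order, 2, 2, 1 and 5 (3.47% of the 144) were called in the other direction. Of the 21 genes higher after Ctcf and lower after Smc3 deletion, 2 were higher and 1 lower. Of the 27 in the reverse class, 3 were higher and 2 lower. Gfra2 and Cntnap3, lower in both deletions, were also lower after Wapl deletion, at -1.71 (adjusted p = 0.0379) and -1.27 (adjusted p = 0.0482).

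**Figure D5:**
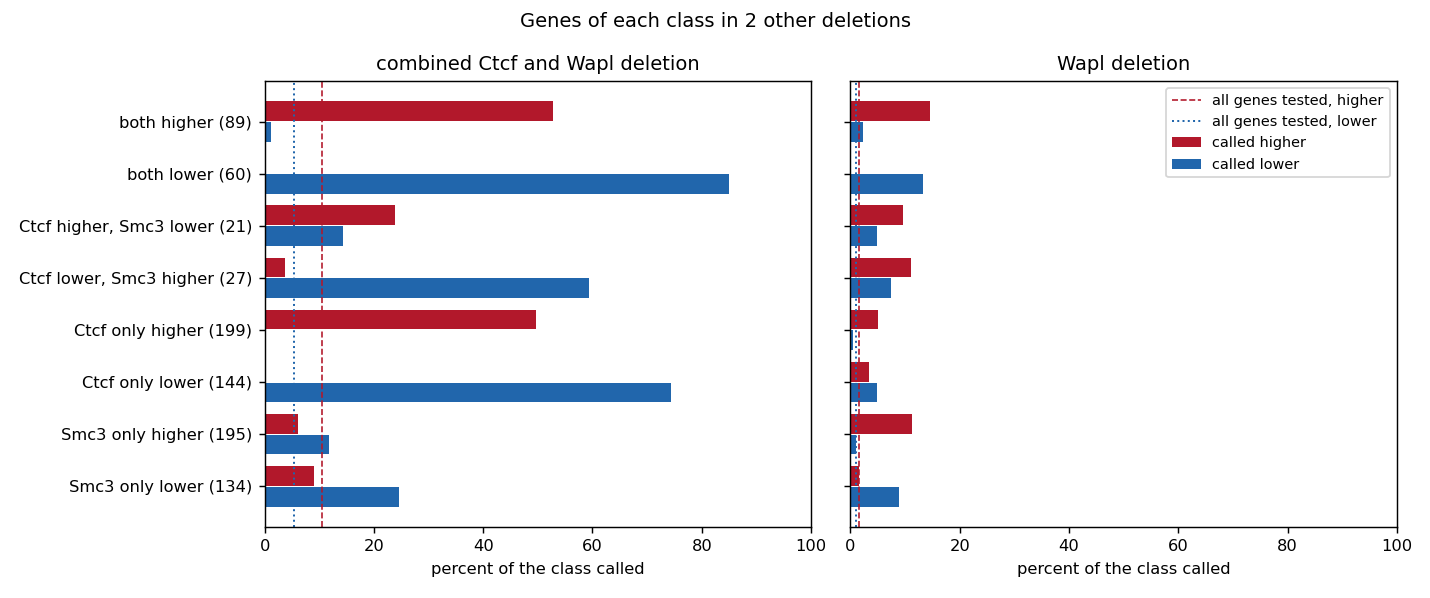
Percent of each class (x axis) called higher (red) or lower (blue) in the combined deletion of Ctcf and Wapl (left) and in the deletion of Wapl (right), for the classes on the y axis with their number of genes, with lines for the percent over all genes tested. In the combined deletion the bars of the classes chosen on Ctcf calls lie above the 10.5% and 5.34% of all genes in their Ctcf direction, from 23.8% to 85.0%.

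Genes that changed after Ctcf deletion often had a neighbour that changed in the same direction. Genes that Adeno-Cre moved in wild-type cells, histone genes among them, were kept in these counts, and their part was not tested. With the 12580 tested genes that could be placed in the order of the RefSeq annotation of GRCm38.p6, 143 of 635 genes higher after Ctcf deletion (22.5%) had a next tested gene that was also higher, against 9.65% of all genes. Of 331 lower genes, 71 (21.5%) had a lower neighbour, against 4.99%, and without the protocadherins 47 of 305 (15.4%), against 4.77%. For Smc3 deletion the values were 238 of 1180 higher genes (20.2% against 17.8%) and 119 of 706 lower genes (16.9% against 10.8%). Pairs of neighbours in a single class included C1ra and C1s, as above, and Scara3, a scavenger receptor gene, with Clu, which encodes clusterin. Scara3 changed by -1.45 and -0.98 and Clu by -1.9 and -1.15 after Ctcf and Smc3 deletion. Dact2 and Smoc2 were higher in both, at 1.45 and 1.53 for Dact2 and 1.04 and 0.48 for Smoc2. Col8a2, a collagen gene, and Adprhl2 were lower after Ctcf deletion alone, at -1.35 and -1.92, and the Col8a2 call was lost without any of the 4 Ctcf libraries (adjusted p 0.091 to 0.29). The sources used here do not give whether counting used strand, and reads of overlapping or adjoining transcripts may be shared between neighbours.

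The core of the DNA motif that CTCF binds contains a run that can read AGGGGGCGC, and this run was searched on both strands of promoter windows from RefSeq (GRCm38.p6), from 250 bases before to 50 bases after each start site. Windows were found for 9915 of the 12604 genes, and 284 of them (2.86%) held the run. Of the genes lower after Ctcf deletion alone, 14 of 103 with a window (13.6%) held it, against 7 of 156 (4.49%) of those higher. Of the genes higher after Ctcf and lower after Smc3 deletion, 4 of 13 (30.8%) held it, and of the reverse class 2 of 22 (9.09%). With the Adeno-Cre genes kept in, 22 of 236 genes lower after Ctcf deletion (9.32%) held it, against 16 of 502 higher genes (3.19%). For Smc3 deletion the shares were 21 of 523 lower (4.02%) and 19 of 910 higher genes (2.09%). The shorter and looser run AGGNGGC, in which N is any base, was in 4541 windows (45.8%), in 61 of the 103 (59.2%) lower after Ctcf deletion alone and in 62 of the 104 (59.6%) lower after Smc3 deletion alone. A match describes letters and is not a bound site, and no protocadherin had a window in this table. Among the genes that the rule named, the run was in the windows of Gaa, Kcnmb4 and Gnai1. Gnai1, which encodes an inhibitory G protein subunit, was higher after Ctcf deletion (0.98, adjusted p = 0.0193, and 0.17 without treated clone 1 or 0.15 without untreated clone 2) and lower after Smc3 deletion (-0.71, adjusted p = 0.0103). The 3 windows are shown to place the run, in capitals, relative to the start site, with each sequence 5′ to 3′ on the strand of its gene.
Gaa, chr11:119267713-119268012, plus strand, run beginning 22 bases before the start site: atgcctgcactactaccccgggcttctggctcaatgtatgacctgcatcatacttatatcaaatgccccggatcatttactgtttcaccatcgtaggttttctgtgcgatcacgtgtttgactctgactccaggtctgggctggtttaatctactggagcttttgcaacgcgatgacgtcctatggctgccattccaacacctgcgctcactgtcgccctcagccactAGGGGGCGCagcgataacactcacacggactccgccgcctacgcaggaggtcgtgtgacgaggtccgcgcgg
Kcnmb4, chr10:116473474-116473773, minus strand, run on the opposite strand, beginning 129 bases before the start site: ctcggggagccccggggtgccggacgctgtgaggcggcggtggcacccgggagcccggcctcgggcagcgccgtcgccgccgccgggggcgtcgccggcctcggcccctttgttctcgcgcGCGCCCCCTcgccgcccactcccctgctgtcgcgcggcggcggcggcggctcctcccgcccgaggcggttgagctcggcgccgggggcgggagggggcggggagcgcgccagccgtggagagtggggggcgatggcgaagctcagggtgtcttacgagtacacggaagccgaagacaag
Gnai1, chr5:18360364-18360663, minus strand, run beginning 137 bases before the start site: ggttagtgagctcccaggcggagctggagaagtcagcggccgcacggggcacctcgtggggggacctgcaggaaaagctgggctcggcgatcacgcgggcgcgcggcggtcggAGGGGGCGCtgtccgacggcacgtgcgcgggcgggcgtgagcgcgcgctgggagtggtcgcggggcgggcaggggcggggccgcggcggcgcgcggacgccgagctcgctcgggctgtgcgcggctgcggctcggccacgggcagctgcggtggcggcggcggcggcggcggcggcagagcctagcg
The run lay close to the start in Gaa, whose mRNA fell after Ctcf deletion, and further upstream in Kcnmb4 and Gnai1, whose mRNA rose. These are 3 genes, and the position was not compared over the classes.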

How the data were processed

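RNA-seq libraries of 12 groups of MEFs were analysed from 1 table of RPKM values for 23339 genes in 27 libraries, as deposited by the authors. The submitters' processing notes list the build mm9 and, without roles, bedtools, HTSeq, Bowtie 0.12.5, TopHat 1.4.1 and 1.3.1, and MACS 1.4.2. The ChIP-seq and GRO-seq samples and the table of serum stimulation were not used here. The number of unused columns of per-sample values in the table was 0.

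The RPKM values of all 18155 genes with values in at least 3 libraries were whole multiples of a step within 0.02 read, which gave the reads in genes of each library. Tests ran on log2(RPKM + 1) with limma 3.58.1 in R 4.3.3, in a linear model of all 27 libraries that fitted each group's mean and left 15 residual degrees of freedom, with empirical Bayes with trend and robust options. Genes with at least 1 RPKM in at least 2 libraries were tested. P-values were adjusted over all of them by the Benjamini-Hochberg method, and 0.05 was the threshold. Differences between changes were contrasts in the same model. The fit was tested on simulated data.

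Per the labels, libraries that share a number are of the same clone. Their deviations from the group means correlated at 0.49 to 0.70 for Smc3, 0.68 for Ctcf and 0.76 for wild-type cells, and the clone was a block in an alternative with 7 residual degrees of freedom. Named genes were the 8 per class with the largest scores and the same sign in each clone, given a mean of at least 5 RPKM in a group, and up to 4 per list of each of 2 kinds. Members and lists were chosen with earlier results of these data known. Other list members named in the text were chosen after their values were seen. Some genes so selected are not reported here, but they stay in the class and list counts.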

Additional observations from a re-analysis of the deposited data

Results flagged for a closer look

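In the groups of 4 Smc3 libraries, the highest or lowest library was tested for a gap to the nearest of the others above Dixon's 95% critical value. Of 280 groups of named genes 19 passed (6.79%), where chance gives about 1 in 20.

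After OHT, clone 1 stood apart for 4 genes. It held 0.86 RPKM of Cntnap3 against 0.31 to 0.402 in the others, 1.8 RPKM of Gnai1 against 1.07 to 1.09, 4.27 RPKM of Flt1 against 0.475 to 0.862, and 5 RPKM of Nkd1 against 3.29 to 3.55. Clone 4 held 67 RPKM of Tnnt2 against 14 to 19.5, 0.383 RPKM of Wnt11 against 0.919 to 1, and 13.2 RPKM of Smc3 against 10.9 to 11.3. Clone 3 held 9.72 RPKM of Sept4 against 1.31 to 2.54.

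Among untreated libraries, clone 3 held 46.4 RPKM of Cxcr7 against 29.6 to 30.8, 1.26 RPKM of Sept4 against 0.364 to 0.478, 113 RPKM of Nbl1 against 150 to 151, and 0.113 RPKM of Oasl1, listed at 0 in the others. Clone 4 held 8.11 RPKM of Zfp423 against 9.46 to 9.74, 0.869 RPKM of Cldn3 against 0 to 0.0513, and 211 RPKM of Igfbp2 against 146 to 147. Clone 1 held 0.217 RPKM of Myh1 against 0.368 to 0.391 and 2.34 RPKM of Ncam2 against 1.26 to 1.41. Clone 2 held 8.02 RPKM of Nog against 5.44 to 5.47 and 10.2 RPKM of Rpl34 against 8.13 to 8.43.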

How the results depend on the processing

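No called change of a named gene reversed its direction under the alternatives run, but some list medians changed sign. The Smc3 median of the imprinted genes was 0.02, and -0.05 with median-of-ratios rescaling or with length trends removed. That of the protocadherins was -0.09, and 0.12 with Smc3 clones 1 and 2 alone. With the clone as a replicate block, 3155 genes were called for Ctcf, 4616 for Smc3, 3040 for their difference and 2899 for Adeno-Cre in wild-type cells, and the classes held 673 genes with a shared direction, 245 opposite, 627 for Ctcf alone and 945 for Smc3 alone. Of the genes in the classes without the block, the same class held 71 of 89 (both higher), 47 of 60 (both lower), 17 of 21 and 17 of 27 (opposite), 126 of 199 and 69 of 144 (Ctcf alone), and 116 of 195 and 88 of 134 (Smc3 alone) under it. Every one of the 193 called changes of named genes passed with the block. The genes named by class were chosen for large changes of the same sign in every clone, so this is partly built in. The Cre-ER pairs correlated at -0.2, and 0 genes were called for OHT with their numbers as labelled or crossed, an alternative chosen after seeing the data.

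Adeno-Cre in wild-type cells called 265 genes with a pseudocount of 0.1, 713 with no filter on low values and 118 after each library's length trend was removed; the cause was not tested. Leaving out each library in turn gave 380 to 1017 genes for Ctcf, 1280 to 2063 for Smc3, 410 to 1160 for the difference, 45 to 483 for Adeno-Cre in wild-type cells, 59 to 182 with a shared direction, 21 to 55 opposite, 158 to 393 for Ctcf alone and 164 to 517 for Smc3 alone. Pairs of Smc3 clones alone called 404 genes (clones 1 and 2), 522 (1 and 3), 479 (1 and 4), 627 (2 and 3), 1152 (2 and 4) and 1105 (3 and 4), and the shared-direction counts of these pairs were 72, 64, 59, 83, 144 and 129 in the same order. Of 193 called changes of named genes, 15 no longer passed with the length trend removed, 14 with a pseudocount of 0.1, 14 with no filter, 8 with median-of-ratios rescaling and 5 with the Ctcf, Smc3, wild-type and Cre-ER libraries alone; of 3088 fits without a library, 229 lost a call. With Smc3 clones 2 and 4 alone, chosen after seeing the data, 914 genes passed for the difference, 42 were opposite, 362 belonged to Ctcf alone and 322 to Smc3 alone.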

Other observations

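Imprinted growth genes were lower after both deletions in their means, with the Smc3 changes passing and the Ctcf changes not. H19, a maternally expressed long non-coding RNA whose control region is a known CTCF site, changed by -5.84 after Smc3 deletion (limma, adjusted p = 0.000119) and by -2.85 after Ctcf deletion (adjusted p = 0.157) on the log2 scale. Igf2, its paternally expressed neighbour that encodes a growth factor, changed by -2.83 (adjusted p = 0.00306) and -1.09 (adjusted p = 0.533). Cdkn1c, which encodes a cell cycle inhibitor, changed by -2.86 (adjusted p = 0.00122) and -0.94 (adjusted p = 0.558). The difference between the deletions did not pass for these genes, with adjusted p of 0.239 for H19, 0.369 for Igf2 and 0.246 for Cdkn1c. Of 34 imprinted genes tested, 2 rose and 9 fell after Smc3 deletion, and 3 fell after Ctcf deletion, with medians of 0.02 and -0.08, where 5.60% and 2.63% of all genes fell. Nnat, an imprinted gene for a small membrane protein, rose by 2.14 after Smc3 deletion (adjusted p = 0.000191), and differed from its Ctcf change of -0.02 (adjusted p = 0.0209).

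Sfrp2, which encodes a secreted Wnt inhibitor, had a mean of 461 RPKM in untreated and 17.6 RPKM in treated Smc3 cells, against 194 and 53.5 RPKM in Ctcf cells. Lgr5, which encodes an R-spondin receptor, had means of 64.2 and 4.51 RPKM, against 45 and 23 RPKM. Sfrp2 changed by -4.87 after Smc3 deletion (adjusted p = 4.05e-05) and by -1.85 after Ctcf deletion (adjusted p = 0.23), and Lgr5 by -3.79 (adjusted p = 9.62e-05) and -0.93 (adjusted p = 0.556). Their differences had adjusted p of 0.09 and 0.0613.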
